A study of Mus musculus with 18 samples.

Results

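The 7 FGF genes examined here, Fgf1, Fgf2, Fgf7, Fgf9, Fgf10, Fgf18 and Fgf13, were taken by gene symbol from the 38243 genes counted in laser-captured mandibular tissue of mouse embryos. They were listed by name, with no threshold on their values. Libraries came from female C57BL/6 embryos at embryonic day 16.5, 3 of them Fgfr2+/S252W (the Apert syndrome model, in which 1 copy of the FGF receptor gene Fgfr2 carries the S252W substitution) and 3 Fgfr2+/+ littermates, with no other allele or agent named. Mandibular bone, Meckel's cartilage (MC) and mandibular condylar cartilage were captured, which gave 6 groups of 3 libraries and 18 libraries in all. Libraries of the 3 tissues that share a genotype and a sample code in the labels are taken here as 1 embryo, although no label says so in words. The mutation is carried in every cell of the mutant embryos, and each captured area holds a mixture of cells. In such bulk samples, fewer cells of a type and less RNA per cell cannot be told apart.

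Fibroblast growth factors are signaling proteins that bind receptor tyrosine kinases together with heparan sulfate and act mainly through the ERK cascade. In the skeleton, ligands made by mesenchyme, perichondrium and osteogenic cells set the pace of cartilage growth and bone formation. Ligand choice depends on the receptor splice form. FGF7 and FGF10, mesenchymal ligands, normally signal to the epithelial FGFR2b form, whereas FGF9 and FGF18 signal to the mesenchymal c forms, and FGF1 binds all receptors. The S252W substitution lies in the linker between the ligand-binding immunoglobulin domains and is known to raise ligand affinity and to let FGFR2c bind ligands of the b form. Fgf13 differs from the other genes examined: it encodes an intracellular FGF homologous factor that binds voltage-gated sodium channels and microtubules and is not a secreted ligand.

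The 7 genes lie on 7 chromosomes (GRCm38, as the files give it). Fgf7 (ENSMUSG00000027208) lies on chromosome 2 at 126034658 to 126091185 and Fgf18 (ENSMUSG00000057967) on chromosome 11 at 33117430 to 33147400. Fgf10 (ENSMUSG00000021732) lies on chromosome 13 at 118714699 to 118792115, and 69 of its 4114 exon bases overlap Gm16263 on the other strand. Fgf2 (ENSMUSG00000037225) lies on chromosome 3 at 37348346 to 37405377, and 242 of its 1548 exon bases overlap Nudt6 on the other strand. Fragments were counted without regard to strand and those shared by overlapping genes were dropped, so fragments from these overlaps are missing from the values. Fgf9 (ENSMUSG00000021974) lies on chromosome 14 at 58070547 to 58112337 and Fgf13 (ENSMUSG00000031137) on chromosome X at 59062145 to 59568071. No exon of another gene overlaps those of Fgf1, Fgf7, Fgf9, Fgf13 or Fgf18.

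Fgf7, Fgf10 and Fgf18 were the members with the lowest levels in condylar cartilage relative to another tissue, and the 250 bases before the start of each are shown for that reason, taken from RefSeq for build GRCm38.p6 and written 5′ to 3′ along the gene. Of the 7 members, 6 had a start in that collection. Capitals mark E-boxes (CANNTG), the motif of basic helix-loop-helix factors such as TWIST1 and scleraxis.
Fgf7, chr2:126034408-126034657, + strand: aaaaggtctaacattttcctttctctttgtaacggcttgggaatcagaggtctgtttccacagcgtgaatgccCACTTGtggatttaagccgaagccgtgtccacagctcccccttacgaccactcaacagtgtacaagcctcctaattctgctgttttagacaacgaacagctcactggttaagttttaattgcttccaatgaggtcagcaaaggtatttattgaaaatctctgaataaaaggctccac
Fgf10, chr13:118714449-118714698, + strand: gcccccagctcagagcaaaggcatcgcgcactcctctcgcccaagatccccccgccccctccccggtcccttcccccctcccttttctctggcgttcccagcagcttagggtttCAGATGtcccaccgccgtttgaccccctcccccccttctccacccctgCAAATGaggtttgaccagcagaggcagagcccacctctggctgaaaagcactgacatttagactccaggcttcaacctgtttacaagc
Fgf18, chr11:33147401-33147650, - strand: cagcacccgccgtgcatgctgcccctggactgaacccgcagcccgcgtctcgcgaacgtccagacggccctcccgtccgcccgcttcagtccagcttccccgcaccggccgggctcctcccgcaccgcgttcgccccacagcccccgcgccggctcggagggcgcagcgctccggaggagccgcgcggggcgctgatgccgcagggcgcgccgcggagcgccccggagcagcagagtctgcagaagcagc
The Fgf7 window held 1 E-box, the Fgf10 window 2 and the Fgf18 window 0, and 66.2% of all 32851 windows of this length held at least 1. The RUNX core TGTGGT (14% of windows), the SOX core ACAAT (27.7%) and the TATA box TATAAA (12.4%), each searched on both strands, had 0 matches in the 3 windows. GC content was 43.6% before Fgf7, 61.2% before Fgf10 and 77.2% before Fgf18. These matches are descriptions of letters, and no binding was measured.

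Depth ranged from 8218548 to 15585778 counted fragments per library, with a median of 10581032. The share taken by Gm42418, a gene that overlaps ribosomal RNA repeats, was 24.1% to 39.4% in MC, 5.58% to 9.33% in bone and 10.9% to 20.2% in condylar cartilage. Levels are given as CPM, the count of a gene divided by the TMM-scaled library size in units of 10 to the power 6, and 1 fragment was worth 0.0443 to 0.225 CPM. Bone markers were highest in bone: the summed level of 10 osteoblast genes was 17241 to 35141 CPM in bone, 5076 to 19883 in condylar cartilage and 1615 to 4035 in MC. Condylar libraries held 32703 to 39943 CPM of 10 chondrocyte genes. The libraries labeled MC held only 619 to 10167 CPM of the same 10 genes, all 10 of which were lower in MC than in condylar cartilage (limma, adjusted p below 0.05), and the library of Fgfr2+/+ embryo 1 held the least. Matn1, a cartilage matrix gene, had a median of 6.64 CPM in MC against 133 in condylar cartilage. The sum of 10 perichondrium, tendon and fibroblast genes was 1076 to 1486 CPM in MC, 939 to 1168 in bone and 563 to 722 in condylar cartilage. MC and bone overlapped, and the median was highest in MC (1373 CPM against 1045 in bone). The sum in MC was carried by Prrx1 (684 ± 127 CPM in MC, 207 ± 51.3 in bone) and Col14a1 (119 CPM in MC, 4.95 in bone). Lum (247 CPM in MC against 492 in bone), Pdgfra (209 against 302) and Twist1 (7.51 against 10.9) went the other way. Of the 7 such genes tested that did not reach the filter only through 1 tissue (as Tnmd did), 1 was higher and 4 lower in bone than in MC. The labels are kept below, and the part of this mixture in the results was not tested.

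All 7 members were detected, and their makeup differed between tissues. On the scale of CPM per kilobase of exons, the summed level of the 7 genes was 17.9 ± 3.57 in MC (SD, n = 6), 9.23 ± 1.08 in bone and 1.22 ± 0.482 in condylar cartilage, and the ranges of the 3 tissues did not overlap. Relative to the rest of the RNA counted, these transcripts were scarcest in condylar cartilage, whose highest library (1.97) lay below the lowest bone library (7.05).

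**Figure D1:**
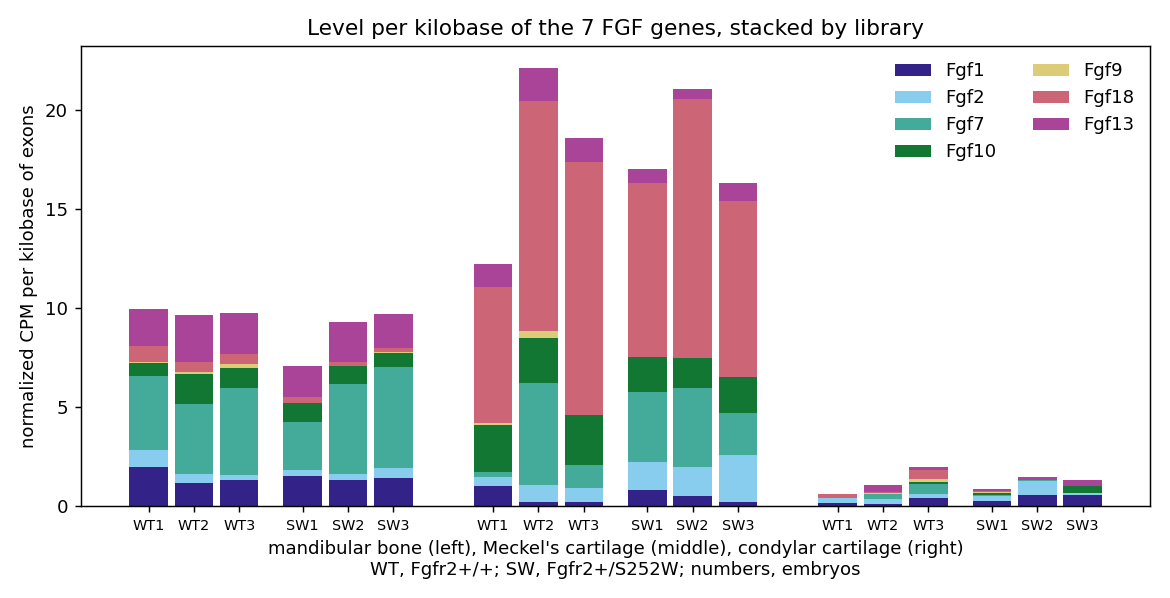
Stacked bars give the level of each FGF gene in each of the 18 libraries, in TMM-normalized CPM per kilobase of exons. MC bars reach 12.2 to 22.1 and are mostly Fgf18, bone bars reach 7.05 to 9.92 and are led by Fgf7, and condylar bars reach 0.607 to 1.97.

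In bone, Fgf7 had the highest level per kilobase, 3.96 ± 0.937 (SD, n = 6), or 34.4% to 52.6% of the 7 genes' sum. Its range did not overlap that of the next gene, Fgf13, at 1.92 ± 0.298. Fgf13, Fgf1 (1.46 ± 0.287) and Fgf10 (0.972 ± 0.298) followed with ranges that overlapped from each gene to the next. Fgf2 and Fgf18 could not be ordered, since each was above the other in 3 of 6 libraries, and Fgf9 was lowest at 0.0615 ± 0.0629.

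In MC, Fgf18 was highest, with 10.3 ± 2.52 CPM per kilobase (n = 6), which was 51.7% to 68.8% of the sum. The next gene, Fgf7, had 2.69 ± 1.85, and the ranges of Fgf18 and Fgf7 did not overlap. The gap rests on the division by exon length (1187 bases for Fgf18, 3144 for Fgf7): in CPM the ranges overlapped (8.18 to 15.5 against 0.743 to 16.1), and the log2 ratio of the means was 0.54 instead of 1.94. From Fgf7 down to Fgf9 the ranges of neighbors overlapped at each step. Fgf7 was above Fgf10 in 4 of 6 libraries, and Fgf2 was above Fgf13 in 3 of 6.

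In condylar cartilage no order of the genes held on the scale per kilobase. Fgf1 had the highest mean, 0.360 ± 0.193 CPM per kilobase, but was above the next gene, Fgf2 (0.285 ± 0.222), in only 3 of 6 libraries. That tie depends on the division by exon length (4306 bases for Fgf1, 1548 for Fgf2). In CPM the log2 ratio of the means was 1.81 instead of 0.33, with ranges of 0.582 to 2.57 against 0.128 to 1.12. Fgf13, Fgf7, Fgf10, Fgf18 and Fgf9 were each listed at 0 in at least 1 condylar library. In raw counts, Fgf9 and Fgf18 had at most 7 and 6 fragments in any condylar library.

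**Figure D2:**
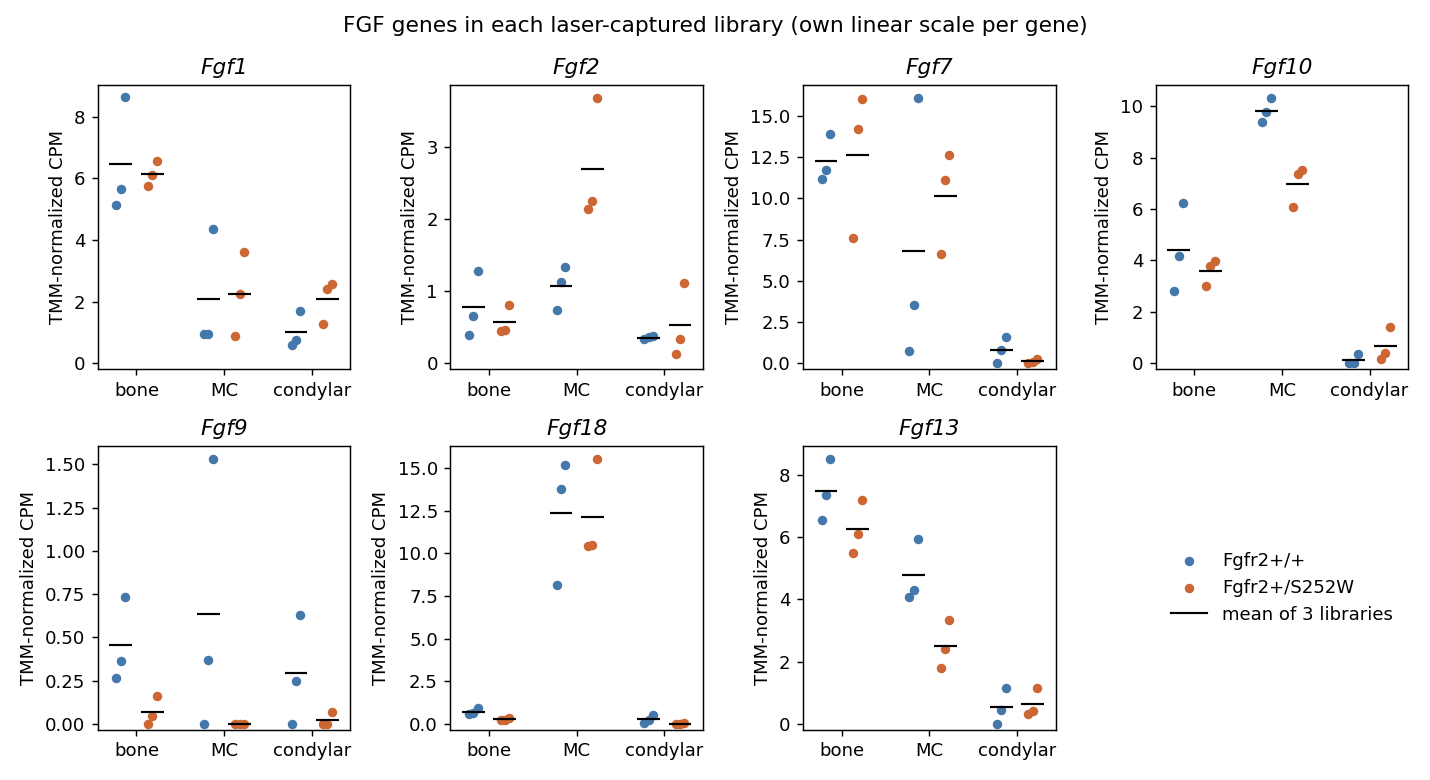
Each point is 1 library and each line the mean of 3, in TMM-normalized CPM on a linear scale of its own for each gene, by tissue and genotype. Fgf18 stands out in MC (8.18 to 15.5), Fgf7, Fgf10 and Fgf13 are near 0 in condylar cartilage, and Fgf9 points of Fgfr2+/S252W embryos lie at 0.161 or below.

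The comparison between tissues asked which ligand genes distinguish bone from cartilage and the cartilages from each other. It averaged both genotypes, kept the embryo as a block and used limma with Benjamini-Hochberg adjustment over all genes tested. Fgf7 and Fgf10 were among the 11469 genes kept by the FPKM filter of the study, which asks for more than 1 FPKM in 50% or more of the libraries. Fgf1, Fgf18 and Fgf13 were tested in the same fit on 13366 genes with a mean of at least 10 fragments per library, and Fgf2 and Fgf9, below that mean, are given as values only. Of the 5 genes tested, 4 differed between bone and MC, 5 between bone and condylar cartilage and 4 between condylar cartilage and MC. Of these genes 2 (Fgf1 and Fgf13) were higher and 2 (Fgf10 and Fgf18) lower in bone than in MC, 5 were higher in bone than in condylar cartilage, and 4, all but Fgf1, were lower in condylar cartilage than in MC. Among all genes of the 2 fits these tissue differences were also common: 49.3% and 49.8% passed between bone and MC, 46.8% and 50.5% between bone and condylar cartilage, and 57.7% and 59.6% between condylar cartilage and MC. By direction, over the 13366 genes, 24.9% were higher and 24.9% lower in bone than in MC, 25.9% higher and 24.6% lower in bone than in condylar cartilage, and 29% higher and 30.6% lower in condylar cartilage than in MC. Tissues whose 6 libraries did not overlap those of the other were found for 25.2%, 34.4% and 29.7% of the 13366 genes in these 3 comparisons. The counts are a description, since a gene that is low in all tissues could not enter and Fgf18 entered only through MC. Without Fgf18 the counts were 3, 4 and 3 of 4.

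Among the mesenchymal ligands of the FGFR2b form, Fgf7 was high in bone and mostly in MC. Its lowest, median and highest levels were 7.63, 12.8 and 16.0 CPM in the 6 bone libraries, 0.743, 8.87 and 16.1 in MC, and 0, 0.177 and 1.62 in condylar cartilage. Bone and condylar cartilage did not overlap, whereas the MC libraries spanned nearly the whole range. The log2 difference of bone over condylar cartilage was 5.26 ± 0.76 (SE; limma adjusted p = 2.0e-05), and Fgf7 was higher in bone in 6 of 6 embryos. Condylar cartilage was below MC by a log2 difference of -4.59 ± 0.66 (adjusted p = 1.4e-05), again in 6 of 6 embryos.

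Between bone and MC, Fgf7 showed a log2 difference of 0.66 ± 0.40 (95% interval -0.18 to 1.51; limma adjusted p = 0.18), with bone higher in 4 of 6 embryos. Without the embryo block the value was 1.24 with adjusted p = 0.027, so this call depended on the block, the only one of the members' calls that did. It was also past the threshold without the bone library (1.19, adjusted p = 0.030) or the MC library (1.34, adjusted p = 0.021) of Fgfr2+/+ embryo 2. The MC library of that embryo had the highest Fgf7 level of the tissue.

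Fgf10, which drives the budding of glands and limbs, was highest in MC. It had 6.08, 8.45 and 10.3 CPM as the lowest, median and highest of 6 MC libraries, 2.81, 3.88 and 6.24 in bone, and 0, 0.266 and 1.41 in condylar cartilage. Of the 6 bone libraries 5 lay below the MC range, and the condylar libraries lay below both other tissues. Bone was below MC by a log2 difference of -1.14 ± 0.29 (limma adjusted p = 0.0033) in 6 of 6 embryos. With the Fgfr2+/S252W embryos alone this call was lost (-1.01, limma adjusted p = 0.069). Condylar cartilage was below MC by -5.24 ± 0.48 (adjusted p = 7.5e-08), and bone was above condylar cartilage by 4.10 ± 0.55 (adjusted p = 9.5e-06).

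Fgf18, a ligand of perichondrium and osteogenic cells that restrains chondrocyte proliferation through FGFR3, had most of its fragments in MC. It had 8.18, 12.1 and 15.5 CPM as the lowest, median and highest of 6 MC libraries, 0.214, 0.473 and 0.937 in bone, and 0, 0.0750 and 0.541 in condylar cartilage. The lowest MC library stood above every other library. In fragments, the MC libraries held 60 to 88, the bone libraries 4 to 14 and the condylar libraries 0 to 6. Fgf18 reached the mean of 10 fragments only through MC, the tissue where it was high, so its differences from MC are given from the fit with no filter on low counts. There bone was below MC by -4.49 on the log2 scale (limma adjusted p = 2.6e-07) and condylar cartilage was below MC by -6.35 (adjusted p = 8.1e-09), each in 6 of 6 embryos.

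The difference of Fgf18 between bone and condylar cartilage was less firm. It was 1.72 ± 0.63 on the log2 scale with adjusted p = 0.029, bone being higher in 6 of 6 embryos, and rested on low counts. It lost its call without bone replicate 1 of either genotype, without condylar replicate 2 of either genotype or without condylar replicate 3 of Fgfr2+/S252W, with values of 1.45 to 1.75 and adjusted p of 0.052 to 0.11.

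Fgf9, the other ligand of the skeletal mesenchyme, was near the limit of detection. It had 26 fragments over the 6 bone libraries, 12 over the 6 MC libraries and 11 over the 6 condylar libraries. The highest level was 0.734 CPM in bone, while MC reached 1.53 and condylar cartilage 0.632, and each tissue had at least 1 library at 0. No tissue difference was tested at this depth.

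Fgf1 and Fgf2 encode ligands that lack a classical signal peptide. Fgf1 (ENSMUSG00000036585, chromosome 18 at 38838673 to 38929157) was highest in bone, with 5.13, 5.93 and 8.63 CPM as the lowest, median and highest of 6 libraries, against 0.875, 1.60 and 4.37 in MC and 0.582, 1.49 and 2.57 in condylar cartilage. Bone lay above both cartilages without overlap. The log2 difference was 1.57 ± 0.39 over MC (limma adjusted p = 0.0032) and 2.21 ± 0.36 over condylar cartilage (adjusted p = 6.4e-05), in 6 of 6 embryos each. Condylar cartilage and MC differed by -0.65 (95% interval -1.45 to 0.15; adjusted p = 0.15), with the sign split 3 against 3 among embryos.

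Fgf2, known as a mitogen stored in matrix, was low throughout. It had 0.395, 0.560 and 1.27 CPM as the lowest, median and highest of 6 bone libraries, 0.743, 1.74 and 3.68 in MC, and 0.128, 0.348 and 1.12 in condylar cartilage. MC was above condylar cartilage in 6 of 6 embryos and above bone in 5 of 6, and the ranges overlapped.

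Fgf13, the intracellular member, was graded from bone to condylar cartilage. Its lowest, median and highest levels were 5.48, 6.87 and 8.51 CPM in bone, 1.80, 3.71 and 5.93 in MC, and 0, 0.440 and 1.16 in condylar cartilage. The 6 condylar libraries lay below all others, and bone and MC overlapped slightly. Bone was above condylar cartilage by a log2 difference of 3.75 ± 0.50 (limma adjusted p = 7.4e-06), and condylar cartilage was below MC by -2.82 ± 0.44 (adjusted p = 3.2e-05). The difference of bone over MC was 0.93 ± 0.33 (adjusted p = 0.026), higher in 6 of 6 embryos. That call was lost without bone or MC replicate 1 or 2 of Fgfr2+/S252W, with values of 0.81 to 0.99 and adjusted p of 0.053 to 0.077, and with edgeR (1.02, adjusted p = 0.051). Markers of neurons, in which Fgf13 is best known, summed to 2.44 to 12.2 CPM over 10 genes in all libraries, with Isl1 at 0. Endothelial genes (7) summed to 202 to 270 CPM in bone, 20.6 to 87.6 in MC and 5.76 to 25.2 in condylar cartilage, and 6 of the 6 that did not enter only through bone were higher there than in MC. Macrophage genes (8) summed to 167 to 279, 40.3 to 150 and 5.76 to 16.7, but of the 7 tested 3 were higher and 4 lower in bone than in MC. Their part in the Fgf1 and Fgf13 differences was not tested.

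**Figure D3:**
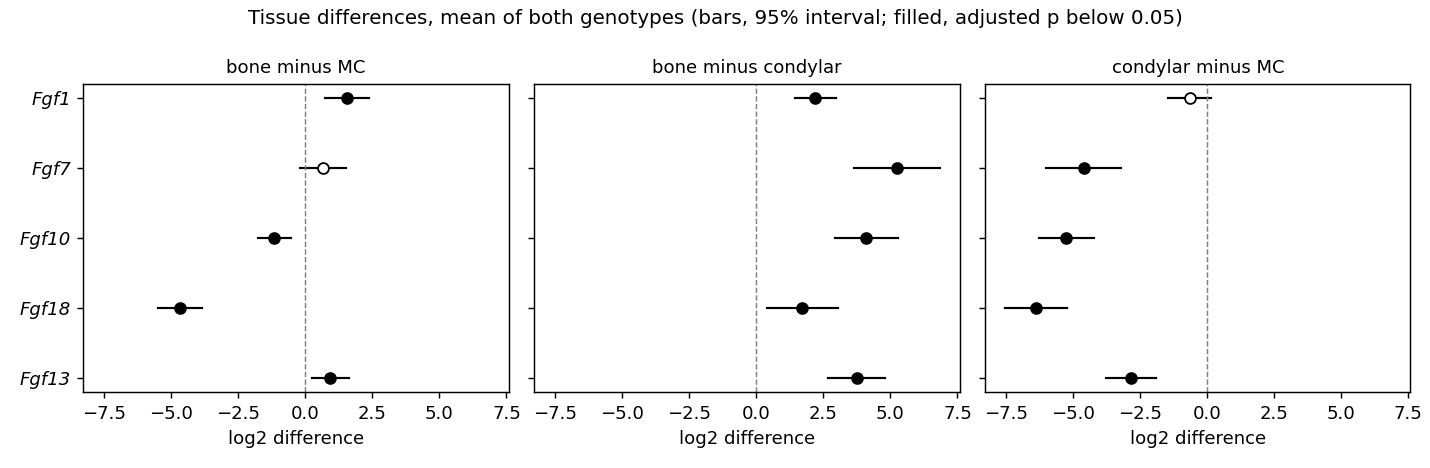
Points are limma log2 differences between tissues for the 5 FGF genes tested, averaged over genotypes, and bars are 95% intervals. Filled points passed an adjusted p of 0.05. Condylar cartilage is low for all 5 genes against bone, and Fgf18 (-4.66) and Fgf10 (-1.14) lie on the side of MC against bone. Fgf18 passed the filter only through MC, so its points against MC are descriptions. The fit with no filter gave -4.49 for bone against MC.

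None of 12 further secreted FGF genes reached a mean of 10 fragments: Fgf8, Fgf15 and Fgf20 were at 0 in all 18 libraries, and the other 9 had 1 to 21 fragments in all. The 3 other intracellular factors were all tested. Fgf11 and Fgf12 were higher in MC than in bone, in the opposite direction to Fgf13 (Fgf11: log2 difference of bone over MC -1.25 ± 0.46, limma adjusted p = 0.032). For Fgf11 the tissues were apart only in Fgfr2+/S252W embryos, with 5.08 to 9.23 CPM in MC against 1.33 to 1.64 in bone. In Fgfr2+/+ embryos they overlapped, with 0.375 to 3.83 CPM in MC against 1.03 to 2.41 in bone. Fgf12 had 11.1 ± 4.36 CPM in MC and 2.73 ± 1.61 in bone (SD, n = 6; limma adjusted p = 7.7e-05). Fgf14 had 4.10 ± 2.75 CPM in MC, 0.554 ± 0.434 in bone and 0 fragments in 6 condylar libraries, and since it entered only through MC its test is not given. Of 13 genes for subunits of voltage-gated sodium channels, the partners of these factors, 6 were tested. Of these Scn1a, Scn3a and Scn8a reached the mean only through 1 tissue. Of the other 3, 0 were higher and 3 lower in bone than in MC, beside 24.9% of all genes in each direction. Against condylar cartilage, 0 of these 3 were higher and 1 lower in bone, beside 25.9% and 24.6% of all genes.

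The receptors had a tissue pattern of their own. Fgfr2 had 375 ± 122 CPM in MC (SD, n = 6), 221 ± 31.1 in bone and 122 ± 22.0 in condylar cartilage. It was lower in bone than in MC by -0.71 ± 0.14 and lower in condylar cartilage than in MC by -1.53 ± 0.14 (limma adjusted p = 0.00055 and 9.1e-08). Fgfr3, the receptor that slows chondrocyte growth, was instead highest in condylar cartilage, with 306 ± 55.3 CPM against 29.6 ± 5.41 in bone and 36.1 ± 16.7 in MC (condylar cartilage over MC 3.16 ± 0.20, adjusted p = 9.3e-10). Fgfrl1, a receptor without a kinase domain, was highest there too (89.7 ± 15.5 CPM). Fgfr1 did not pass in any tissue comparison (adjusted p from 0.25 to 0.67), and Fgfr4 had 4.23 ± 1.17 CPM in condylar cartilage, above bone at 0.586 ± 0.667 (adjusted p = 0.00011).

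Genes induced or used in feedback by FGF signaling differed between the tissues in both directions. Of 16 such genes 13 were tested, and Dusp4, which reached the filter only through bone, is left out of the counts. Of the other 12, 7 were higher and 4 lower in bone than in MC, beside 24.9% of all genes in each direction. Against condylar cartilage, 7 were higher in bone and 0 lower, beside 25.9% and 24.6% of all genes. Dusp6, an ERK phosphatase, was higher in bone than in condylar cartilage by 2.82 ± 0.36 (limma adjusted p = 5.1e-06). The ERK inhibitor gene Spry1 was higher by 3.77 ± 0.47 and Etv1, an ETS factor, by 3.43 ± 0.42 (adjusted p = 3.6e-06 and 3.0e-06).

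Co-receptors and adaptors are set beside the 50.5% of all genes that differed between bone and condylar cartilage. Of 13 co-receptors and carriers 10 were tested, and of the 9 that did not enter only through 1 tissue (as Fgfbp3 did) 3 were higher and 6 lower in bone. Hspg2, the gene of perlecan, the heparan sulfate proteoglycan of cartilage matrix, was lower in bone by -2.57 ± 0.16 (limma adjusted p = 1.1e-09), whereas the syndecan gene Sdc2 was higher by 1.84 ± 0.14 (adjusted p = 1.2e-08). Of 8 adaptors 7 were tested, and 1 was higher and 3 lower in bone, a share near that of all genes. Frs2, the docking protein of FGF receptors, was lower by -1.04 ± 0.12 (adjusted p = 1.5e-06).

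Genes whose TMM-normalized log2 CPM followed a member over the 18 libraries are given as a description. These libraries share embryos and tissue differences, so the correlations (Pearson r over 18 libraries) mostly reflect tissue. Fgf7 was most like Gas1 (r = 0.93), Kcnj8 (0.93) and Cav1 (0.92), and Fgf10 most like Thbs2 (0.97), Rbbp7 (0.96) and Elf4 (0.96). Among genes with a mean of at least 10 fragments, Fgf18 was most like Svep1, Itgbl1 and Bnc2 (0.99 each), Fgf1 most like Ldb2 (0.92), Spata13 (0.92) and Frmd4b (0.91), and Fgf13 most like Hipk3 (0.95), Tyrobp (0.94) and Hfe (0.94). After the mean of each tissue was taken away the same 15 correlations were 0.40 to 0.79.

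The comparison of Fgfr2+/S252W with Fgfr2+/+ embryos within each tissue asked whether a receptor mutation that widens ligand binding goes with a change of the ligand genes. None of the 5 genes tested passed the threshold in any tissue with limma, edgeR or DESeq2. Before adjustment, limma gave a p below 0.05 for Fgf7 in MC, for Fgf10 in condylar cartilage and for 0 members in bone. Among all genes, 0.0872% and 0.157% passed in bone in the 2 limma fits, and 0% in either of the cartilages. The number in bone was unstable, from 0 to 759 genes over the settings run. Of the 11469 genes, 1761 in MC and 351 in condylar cartilage had an unadjusted p below 0.05. In MC edgeR called 90 genes and DESeq2 423, and in condylar cartilage they called 0 and 3. Every alternative analysis tried left the count of members at 0. Fgfr2 itself had 218 ± 14.0 CPM in Fgfr2+/S252W and 224 ± 46.8 in Fgfr2+/+ bone (SD, n = 3), and its level does not check a point mutation.

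In bone, the FGFR2b ligands were close between genotypes. Fgf7 had 7.63, 14.2 and 16.0 CPM in the Fgfr2+/S252W embryos and 11.7, 11.2 and 13.9 in the Fgfr2+/+ embryos (replicates 1 to 3). The groups overlapped fully, and the log2 difference of Fgfr2+/S252W over Fgfr2+/+ was -0.03 (95% interval -0.92 to 0.87; limma adjusted p = 1.0). Fgf10 had 3.99, 3.77 and 3.00 CPM against 2.81, 6.24 and 4.18, a difference of -0.22 (-0.95 to 0.52; adjusted p = 0.95). Fgf1 differed by -0.04 (-0.67 to 0.59) and Fgf13 by -0.24 (-0.85 to 0.37). For these 4 genes the intervals leave room for changes of about 1 log2 unit or less in bone.

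Fgf18 in bone did not overlap between genotypes. It had 0.358, 0.266 and 0.214 CPM in Fgfr2+/S252W and 0.937, 0.587 and 0.621 in Fgfr2+/+ bone, from 7, 6 and 4 against 14, 8 and 11 fragments. Every mutant library was below every littermate library, and the log2 difference was -1.29 ± 0.69 (95% interval -2.73 to 0.16; limma adjusted p = 0.65). Over all genes of that fit 20.8% had groups that did not overlap in bone. Marker sums differed between the genotypes in bone as well. Red blood cell genes (6) summed to 315 to 597 CPM in Fgfr2+/S252W and 1257 to 1506 in Fgfr2+/+ bone, muscle genes (10) to 5.53 to 60.2 against 58.9 to 396, and osteoclast genes (8) to 1719 to 2377 against 921 to 1189. Macrophage genes (8) summed to 218 to 279 against 167 to 195, but of the 7 tested 1 was higher and 1 lower in the mutants, with a median log2 difference of -1.47. Neuron genes (10) summed to 5.45 to 6.86 against 6.96 to 9.32. Of these sums only that of muscle overlapped between the genotypes. Their part in the Fgf18 values was not tested.

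In MC, Fgf7 had 11.1, 12.6 and 6.65 CPM in Fgfr2+/S252W and 0.743, 16.1 and 3.56 in Fgfr2+/+ embryos. The spread among littermates was wider than the difference between the means, and the fitted log2 difference was 1.85 ± 0.79 (95% interval 0.20 to 3.50; limma adjusted p = 0.28). The size depended on the tool, with 0.63 by edgeR (adjusted p = 0.72) and 0.59 by DESeq2 (adjusted p = 0.82). It was 0.38 without the Fgfr2+/+ library of embryo 1 (adjusted p = 0.87) and 2.76 without that of embryo 2 (adjusted p = 0.094). The former held the lowest Fgf7 level of MC and also the lowest summed chondrocyte markers, 619 CPM.

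Fgf10 and Fgf13 in MC were lower in every mutant library than in every littermate library. Fgf10 had 7.35, 6.08 and 7.53 CPM against 9.76, 9.37 and 10.3, a log2 difference of -0.47 ± 0.39 (95% interval -1.29 to 0.34; limma adjusted p = 0.59). Fgf13 had 2.41, 1.80 and 3.33 CPM against 4.09, 5.93 and 4.31, a difference of -0.88 ± 0.58 (-2.08 to 0.33; adjusted p = 0.48). Groups that did not overlap were found for 13% of the 13366 genes in MC. Marker sums also separated the genotypes in MC. Macrophage genes (8) summed to 105 to 150 CPM in Fgfr2+/S252W and 40.3 to 87.6 in Fgfr2+/+ libraries, Schwann cell and glial genes (7) to 12.4 to 20.3 against 3.62 to 8.06, and osteoclast genes (8) to 64.0 to 70.5 against 89.4 to 257. Their part in the Fgf10 and Fgf13 values was not tested. Fgf18, the leading FGF gene of MC, had 10.4, 15.5 and 10.5 CPM against 8.18, 13.8 and 15.2, and its difference of 0.04 had an interval of -0.57 to 0.65.

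In condylar cartilage Fgf7, Fgf10 and Fgf18 rested on few fragments. Fgf10 had 6, 2 and 11 fragments in Fgfr2+/S252W and 0, 0 and 4 in Fgfr2+/+ embryos, a log2 difference of 2.51 ± 0.98 (95% interval 0.46 to 4.56; limma adjusted p = 1.0) with groups that overlapped. Fgf18 had 1, 0 and 0 fragments against 3, 1 and 6, a difference of -2.02 ± 1.00 (-4.12 to 0.07; adjusted p = 1.0). The genotypes met at 1 fragment and were apart only in CPM, with at most 0.0669 against at least 0.0831, as were 9.52% of all genes in either direction. Fgf7 had 4, 1 and 0 fragments against 0, 10 and 18. Fgf1 was better covered, with 19, 28 and 20 fragments against 10, 7 and 19, and its groups overlapped in CPM (log2 difference 1.04, -0.31 to 2.39; limma adjusted p = 1.0). Fgf13 had 5, 5 and 9 against 0, 14 and 5 fragments. None of these differences passed the threshold.

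**Figure D4:**
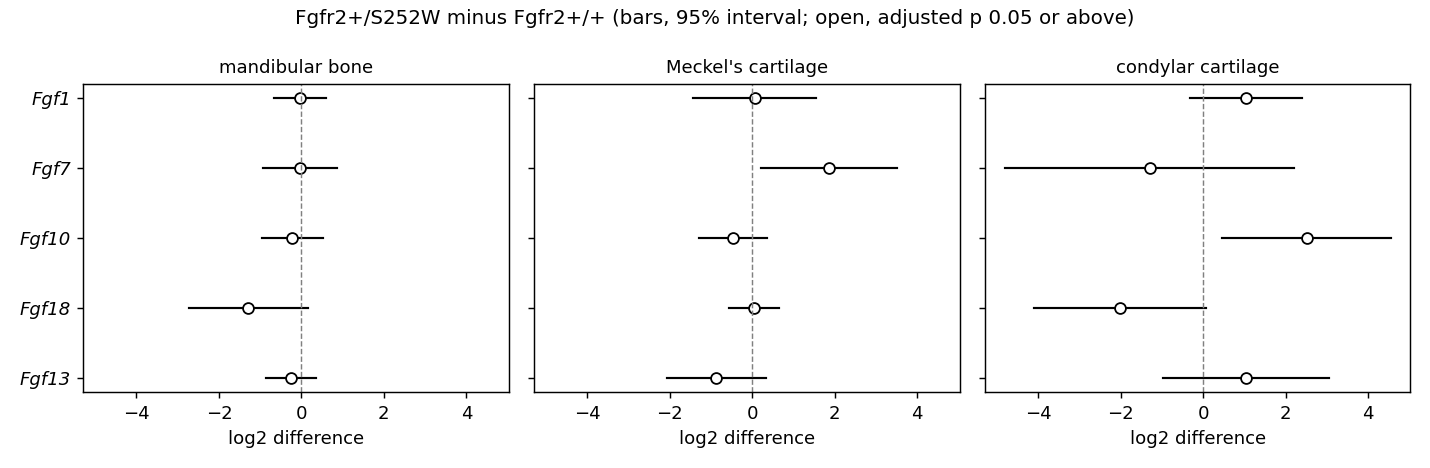
Points are limma log2 differences of Fgfr2+/S252W over Fgfr2+/+ embryos in each tissue for the 5 FGF genes tested, with 95% intervals. All points are open because none passed an adjusted p of 0.05; the intervals are narrowest in bone for 4 of the genes and in MC for Fgf18, and the interval of Fgf10 in condylar cartilage reaches 4.56.

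Whether the genotype difference itself varied between tissues was tested with the interaction, within embryos. None of the 5 genes passed in any of the 3 interactions with limma or edgeR, nor with DESeq2 where it gave an adjusted p (it gave none for Fgf1 and Fgf13 between condylar cartilage and MC), and 0% to 0.0349% of all genes did with limma. Before adjustment, the limma p was below 0.05 for 0 members in bone against MC, for 1 in bone against condylar cartilage (Fgf10) and for 2 in condylar cartilage against MC (Fgf7 and Fgf10). Of the 11469 genes, 1046, 328 and 1184 had an unadjusted p below 0.05 in these 3 interactions. Among the members the smallest p was for Fgf10 between condylar cartilage and MC (log2 2.97 ± 0.97, limma adjusted p = 0.30).

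Fgf2 and Fgf9, too low for the fits, were compared as values. Fgf2 in MC had 16, 10 and 21 fragments in Fgfr2+/S252W and 8, 7 and 6 in Fgfr2+/+ embryos, or 2.14, 2.25 and 3.68 CPM against 0.743, 1.34 and 1.12. All 3 mutant libraries were above all 3 littermate libraries, as 13% of the 13366 more abundant genes were apart in MC in either direction, and 3 embryos against 3 cannot give an exact two-sided permutation p below 0.1. In bone and in condylar cartilage the Fgf2 groups overlapped.

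Fgf9 had fewer fragments in mutant embryos in each tissue. In bone it had 0, 1 and 3 fragments in Fgfr2+/S252W and 4, 5 and 13 in Fgfr2+/+ embryos, with no overlap. Over the 13366 more abundant genes, 20.8% were apart in bone in either direction. In MC it had 0 fragments in the 3 mutant libraries, which allows up to 0.109 CPM before scaling over the 27617822 fragments counted (a limit of 3 fragments), and 4, 8 and 0 in the littermates. In condylar cartilage it had 1, 0 and 0 fragments against 0, 3 and 7.

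Since Fgf9 was too sparse in single tissues, fragments of the 3 tissues were summed per embryo, an analysis added after the values were seen. Fgf9 then had 1, 1 and 3 fragments in the Fgfr2+/S252W and 8, 16 and 20 in the Fgfr2+/+ embryos, 5 against 44 in all. Each mutant embryo was below each littermate (exact two-sided permutation p = 0.1, the smallest possible). Over 19076 genes, limma gave a log2 difference of -2.92 ± 0.94 (adjusted p = 0.29) and edgeR -3.14 (adjusted p = 0.20), so the difference did not pass the correction, which 0.341% of the genes passed with limma. Groups not overlapping with the mutant lower were found for 9.04% of those genes. Fgf10 (2.95 to 3.42 against 3.77 to 4.34 CPM) and Fgf18 (1.94 to 2.05 against 2.62 to 2.87 CPM) were also lower in all 3 mutant embryos by this sum (exact permutation p = 0.1 each; limma adjusted p = 0.66 and 0.55), and Fgf1, Fgf2, Fgf7 and Fgf13 overlapped. Such sums weight each tissue by its library size, and in each of the 6 embryos the MC library was the smallest after scaling. With the CPM of the 3 tissues averaged at equal weight, Fgf18 overlapped between genotypes (3.57 to 5.27 against 3.11 to 5.45 CPM, exact permutation p = 0.9). Fgf9 (0.0148 to 0.0535 against 0.213 to 0.715) and Fgf10 (3.34 to 3.98 against 4.19 to 5.20) were still apart, and by this mean Fgf13 (2.74 to 3.53 against 3.55 to 5.20) and Fgf2, which was higher in the mutants (0.978 to 1.54 against 0.627 to 0.797), were apart too (exact permutation p = 0.1 each). By the equal-weight mean 7.64% of the 19076 genes were apart with the mutant lower and 6.89% with the mutant higher.

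**Figure D5:**
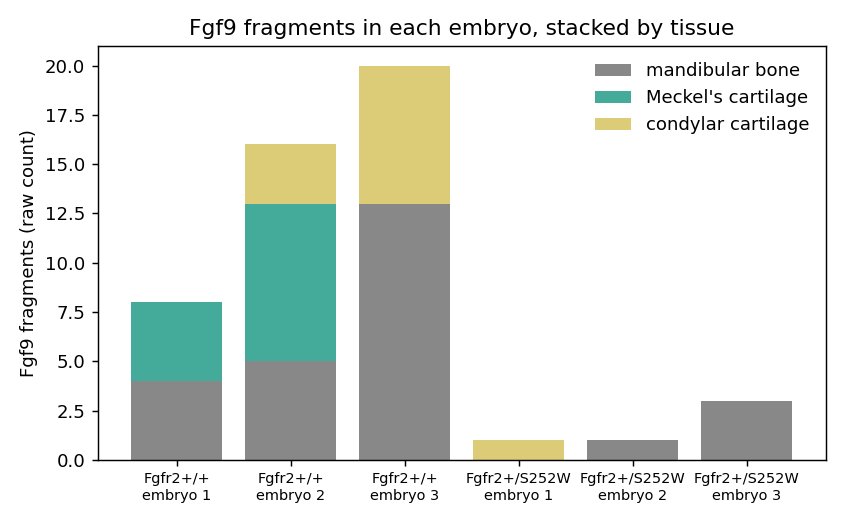
Bars give the raw number of Fgf9 fragments in each embryo, stacked by tissue. The 3 Fgfr2+/+ embryos hold 8, 16 and 20 fragments and the 3 Fgfr2+/S252W embryos 1, 1 and 3.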

How the data were processed

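Laser-captured tissue from frozen, unfixed coronal cryosections was amplified (NuGEN Ovation RNA-Seq System v2) and sequenced as read pairs. Per the labels and file headers, the authors trimmed reads with cutadapt, aligned them to mm10 with STAR and made the deposited counts with featureCounts 1.5.0-p1 over the exons of each Ensembl gene, unstranded, as fragments. Reads from several places or genes were not counted. Amplification without molecular identifiers means that fragments are not independent molecules, so limits from low counts cover counting error only.

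Counts of the 18 libraries were joined by gene identifier. The members and gene lists were chosen with earlier results of these data known. Fits used limma 3.58.1 (voom, TMM factors from edgeR 4.0.16, moderated test, two-sided, Benjamini-Hochberg, threshold 0.05). The S252W comparison used 6 group means with no block, as in the study's methods. The comparison of tissues and the interactions had the embryo as a fixed block, taken from sample codes in the labels that tissues share. No label names the embryo in words. Deviations from the group means of libraries with the same embryo number correlated little (mean r = -0.0014 over 18 pairs), as did those of equal numbers of different genotypes (0.049 over 9 pairs). Nothing in the labels names a litter or batch. Named genes were all 7 members, the 3 genes most correlated with each tested member (planned for the 2 that passed the FPKM filter and extended after the values were seen), the receptors and up to 4 of each pathway list. The fits with and without the embryo block were also run on simulated counts of the 13366 genes. Only bone against MC and the S252W effect in bone were examined. The simulation held no embryo effect, its outcome is not given here, and no result rests on it. Alternatives were edgeR, DESeq2 1.42.0, other scaling, filters, weights and blocks, subsets, and each library left out. Versions are those of R 4.3.3.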

Additional observations from a re-analysis of the deposited data

How the results depend on the processing

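Member counts in the S252W, interaction and summed comparisons were 0 under every alternative that gave an adjusted p. Of the 5 genes tested, 4 differed between bone and MC (2 with the S252W embryos alone, 3 to 5 with 1 library left out), 5 between bone and condylar cartilage (4 to 5) and 4 between condylar cartilage and MC (4 to 4). Calls lost were those of Fgf13 (0.61, adjusted p = 0.26) in bone against MC and Fgf18 (1.27, adjusted p = 0.23) in bone against condylar cartilage with the Fgfr2+/+ embryos alone, and with the S252W embryos alone those of Fgf13 (1.25), Fgf10 (-1.01) and Fgf18 (2.17). The cause was not tested, and each such fit has 3 of the 6 embryos.

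With the embryo as a random instead of a fixed block, Fgf7 in bone against MC passed (1.24, adjusted p = 0.029), as it did with no block. Pairing equal replicate numbers of the genotypes, which share only a number, gave 0.021 for Fgf7 in bone and -0.0019 for Fgf18 in MC, opposite in sign to the values without this block. Other S252W differences near 0 that turned sign were Fgf7 in bone with edgeR (0.042), DESeq2 (0.035), quality weights (0.015) and no filter (0.040), Fgf1 in bone with no filter (0.016), and Fgf18 in MC with edgeR (-0.036), DESeq2 (-0.032) and quality weights (-0.090). Over left-out libraries the S252W difference ran from -0.22 to 0.29 for Fgf7, -0.17 to 0.18 for Fgf1 and -0.49 to 0.039 for Fgf10 in bone, from -0.47 to 1.01 for Fgf1 and -0.31 to 0.21 for Fgf18 in MC, and from -0.50 to 2.10 for Fgf13 in condylar cartilage. The interactions of Fgf1 for bone against MC (-0.93 to 0.47) and Fgf13 for bone against condylar cartilage (-2.03 to 0.10), and summed Fgf13 (-0.30 to 0.052), also changed sign. With tissues at equal weight, the summed difference moved from -0.42 to -0.10 for Fgf18, from -0.14 to -0.44 for Fgf13 and from -2.92 to -3.93 for Fgf9.

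Without division by length, the log2 level of Fgf18 over Fgf7 in MC was 0.54 instead of 1.94, and that of Fgf1 over Fgf2 in condylar cartilage 1.81 instead of 0.33. Over all genes and every setting and filter run, S252W calls ranged from 0 (without Fgfr2+/+ bone replicate 1) to 759 (quality weights) in bone, where 10 are reported, from 0 to 442 (DESeq2) in MC and from 0 to 3 in condylar cartilage. Interaction calls ranged from 0 to 68, 0 to 6 and 0 to 51 for bone against MC, bone against condylar cartilage and condylar cartilage against MC. Tissue calls in the same order ranged from 3668 to 12952, 3448 to 8175 and 5159 to 10564, lowest with 1 genotype alone. The main fit with the FPKM filter gave 5657, 5370 and 6613. Depth limits Fgf2, Fgf9 and the condylar values of Fgf7, Fgf10 and Fgf18, where a few fragments decide a level.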

Other observations

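Among the 12 further secreted FGF genes, Fgf3, named here after its values were seen, had 16 fragments in all. They came from the 3 Fgfr2+/S252W bone libraries (1, 5 and 10 fragments), and the other 15 libraries had 0. Fgf23, the phosphate-regulating hormone made by bone cells, had the most of these genes, 21 fragments over the 18 libraries. No test was made at these counts.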
